A study of Mus musculus with 6 samples.

Results

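The genes described here are 10 myeloid growth factor and receptor genes, *Csf1*, *Csf1r*, *Csf2*, *Csf2ra*, *Csf2rb*, *Csf2rb2*, *Csf3r*, *Kit*, *Flt3* and *Il34*, taken by their symbols from a table of 40481 genes. They were measured by RNA sequencing of unstimulated bone marrow-derived macrophages (BMDMs), which are mouse bone marrow cells cultured into macrophages. There were 3 wild-type samples and 3 samples with both floxed *Scd2* alleles deleted by a lysozyme M-Cre transgene (*Scd2-m/-m*), with 1 library each. *Scd2* encodes stearoyl-CoA desaturase 2, an enzyme that makes monounsaturated fatty acids, and lysozyme M-Cre acts in cells of the myelomonocytic lineage, so the deletion takes place as the cells mature and need not be complete. The study used male and female mice 2 to 5 months old, and no strain, sex, age or litter is given for a library. Whether the 3 libraries of a genotype came from separate mice is not given either, so the p-values measure the spread between these samples, which may be technical. Cells of both genotypes differentiated for 5 to 6 days in medium with 10% CMG-conditioned medium and were then kept in medium with 2% of it. CMG cells secrete macrophage colony-stimulating factor (M-CSF), so every culture received the ligand of one of the receptors described here from outside.

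M-CSF (the product of *Csf1*) and interleukin-34 (*Il34*) both bind the tyrosine kinase receptor CSF1R, on which most macrophages depend for survival. GM-CSF (*Csf2*) binds an alpha chain of its own (*Csf2ra*) and a beta chain (*Csf2rb*), which it shares with the receptors of interleukin-3 and interleukin-5. The mouse has a second beta chain gene, *Csf2rb2*, whose product serves interleukin-3 alone. *Csf3r* encodes the receptor of G-CSF, the growth factor of neutrophils, and *Kit* and *Flt3* encode receptors of stem cell factor and FLT3 ligand that mark early progenitors and are shut off as macrophages mature.

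In *Scd2-m/-m* BMDMs the transcripts of 3 receptors of mature myeloid cells were lower and that of 1 progenitor receptor was higher. *Csf1r* fell to 77.0% of its wild-type mean, *Csf3r* to 82.1% and *Csf2rb* to 85.1%, while *Flt3* rose 3.73-fold at a level below 1 CPM (each gene's counts relative to the library total after scaling by the TMM method). Of the 10 genes, 8 had enough counts to be tested, and 4 of the 8 had an adjusted p (FDR) below 0.05 from edgeR's quasi-likelihood test, 1 higher and 3 lower. Over all 14778 genes tested that share was 17.5%, with 9.65% higher and 7.84% lower. Higher genes made up 55.2% of all calls, or 65.4% when library totals alone set the scale. The median log2 fold change was −0.15 over the 8 genes and 0.0039 over all genes tested. None of the 8 passed the study's second threshold, an absolute log2 fold change above 2, which 0.663% of all genes passed. Without wild-type replicate 2, or without *Scd2-m/-m* replicate 2, only *Csf1r* was called, 1 gene of 8 in each case. Calls over all genes also fell in these fits, from 2585 of 14778 to 1490 of 15161 and 1440 of 15107. The libraries of the genotypes did not overlap in 5 of the 8 genes, 3 lower and 2 higher, and in 34.9% of all genes tested (17.9% higher and 17% lower). The 2 higher genes, *Flt3* and *Kit*, had enough counts to be tested only through the *Scd2-m/-m* libraries, in which they were higher. With 3 libraries against 3, an exact permutation test of a single gene cannot give a p below 0.1, which is the value each of those 5 genes had.

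**Figure D1:**
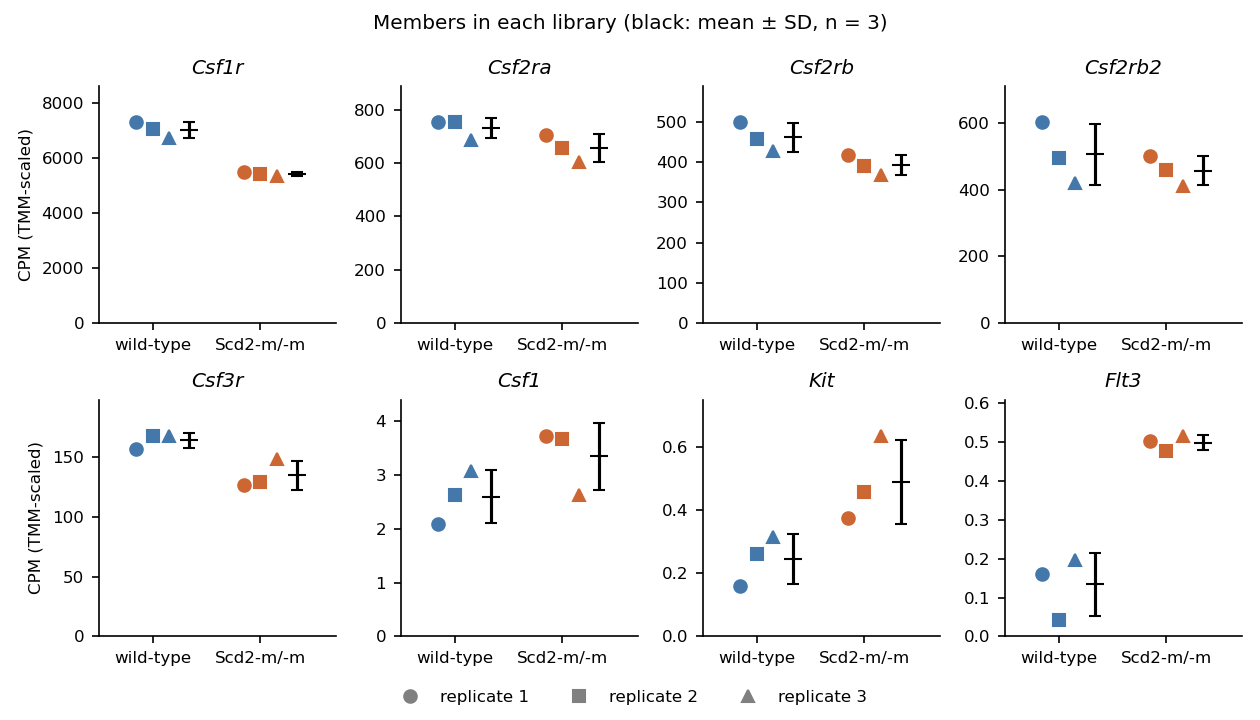
Level of each of the 8 tested genes in CPM (vertical axes, each starting at 0) in the 3 wild-type and 3 *Scd2-m/-m* libraries, with the mean ± SD in black. The genotypes separate for *Csf1r*, *Csf2rb*, *Csf3r*, *Kit* and *Flt3* and overlap for *Csf2ra*, *Csf2rb2* and *Csf1*.

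The libraries held between 46285176 and 57629638 counts on genes. *Scd2* itself averaged 69.1 ± 7.76 CPM in wild-type BMDMs and 45.8 ± 11.9 CPM after deletion (SD, n = 3 each), and the genotypes did not overlap. Its log2 fold change was −0.59 ± 0.19 (standard error, edgeR FDR = 0.1002). All 10 macrophage markers examined were detected in every library, the lowest of them *Aif1* at 46.8 CPM. In *Scd2-m/-m* BMDMs 4 of them were called lower and 1 higher, where 17.5% of all genes tested were called. By the sign of the change alone, 8 were lower and 2 higher. *Lyz2*, the lysozyme M gene whose promoter drives the Cre, was lowered most among these markers, to 39.7% of its wild-type mean. The part of the Cre transgene itself in the value of *Lyz2* was not tested. In bulk RNA, fewer cells of a type and less RNA per cell cannot be told apart.

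*Csf1r* (ENSMUSG00000024621, plus strand of chromosome 18 from 61100598 to 61132149 in GRCm38) encodes the receptor of M-CSF and interleukin-34. Wild-type replicates 1, 2 and 3 measured 7310, 7043 and 6740 CPM, against 5482, 5415 and 5344 CPM for the same numbers of *Scd2-m/-m*. Every *Scd2-m/-m* library lay below every wild-type library, and the 3 *Scd2-m/-m* libraries lay close together. The means were 7031 ± 285 and 5414 ± 68.7 CPM (SD, n = 3 each). edgeR's log2 fold change was −0.38 ± 0.07 (standard error, FDR = 0.00158). Its share of all counts was 0.539% to 0.715% per library, and it ranked 12 by counts in each of them. The fall was called at the same FDR in all 15 alternative fits tried, with log2 fold changes between −0.41 and −0.34. The minus-strand gene *Hmgxb3* overlaps it, and its own means were 24.4 (wild-type) and 21.6 CPM (*Scd2-m/-m*).

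Of the 2 ligands of CSF1R, only *Csf1* had counts. *Csf1* (ENSMUSG00000014599, minus strand of chromosome 3, 107741048 to 107760469) had 2.10, 2.62 and 3.07 CPM in the wild-type libraries and 3.73, 3.66 and 2.63 CPM in the *Scd2-m/-m* libraries. *Scd2-m/-m* replicate 3 lay within the wild-type range, so the genotypes overlapped. The means were 2.60 ± 0.488 and 3.34 ± 0.614 CPM (SD, n = 3 each). On the log2 scale the change was 0.36 ± 0.19 (standard error, edgeR FDR = 0.219). *Il34* (chromosome 8, 110741829 to 110805924) had 0 counts in all 6 libraries. The cells thus held abundant receptor transcript and little or no transcript of its ligands, at a time when M-CSF came with the medium.

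The G-CSF receptor gene *Csf3r* (ENSMUSG00000028859, plus strand of chromosome 4, 126024550 to 126044440) measured 157, 168 and 168 CPM in the wild-type libraries. The values for *Scd2-m/-m* were 127, 129 and 149 CPM. All *Scd2-m/-m* libraries were lower, replicate 3 by the narrowest margin. The means were 164 ± 6.16 and 135 ± 12.0 CPM (SD, n = 3 each). The log2 fold change was −0.28 ± 0.07 (standard error, edgeR FDR = 0.0105). The call was lost without wild-type replicate 2 (log2 fold change −0.27, FDR = 0.0663) and without *Scd2-m/-m* replicate 2 (−0.25, FDR = 0.0854), with little change in size. *Csf3r* is best known from neutrophils, whose markers were therefore examined. The 10 neutrophil markers summed to between 24.0 and 27.9 CPM in wild-type and between 37.5 and 48.1 CPM in *Scd2-m/-m* libraries. Of the 7 tested 5 were called, all higher, where 17.5% of all genes tested were called and 9.65% were called higher. *Mmp8*, a granule collagenase and the most abundant of them, had 12.5 ± 1.65 and 10.1 ± 1.87 CPM (SD, n = 3 each; log2 fold change −0.31, edgeR FDR = 0.146). *Ly6g*, which defines mature neutrophils, was not above 0.0358 CPM in any library. The part of such cells in the value of *Csf3r* was not tested.

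The GM-CSF receptor alpha chain gene *Csf2ra* (ENSMUSG00000059326) lies on the minus strand of chromosome 19 from 61223957 to 61228429, 16917092 bases from *Scd2*. It had 754, 754 and 689 CPM in the wild-type libraries and 707, 658 and 606 CPM in the *Scd2-m/-m* libraries. The ranges overlapped through *Scd2-m/-m* replicate 1 and wild-type replicate 3, and the log2 fold change was −0.16 ± 0.07 (standard error, edgeR FDR = 0.157), and it was called in 1 of 15 alternatives, limma-voom with quality weights (−0.17, FDR = 0.0255). Its ligand gene *Csf2* (chromosome 11, 54247271 to 54249667) had 0 counts in all 6 libraries. For *Csf2* and *Il34*, 0 counts allow up to 3 counts, which is between 0.0516 and 0.0650 CPM per library and covers counting error only.

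The shared beta chain gene *Csf2rb* (ENSMUSG00000071713, plus strand of chromosome 15, 78325752 to 78353847) had 500, 458 and 428 CPM in the wild-type libraries. It had 418, 392 and 369 CPM in the *Scd2-m/-m* libraries, all below the wild-type range but by a narrow gap. The means were 462 ± 36.1 and 393 ± 24.3 CPM (SD, n = 3 each). edgeR's log2 fold change was −0.23 ± 0.07 (standard error, FDR = 0.0373). This call was the least stable of the 4, since 6 of 16 alternatives ended it. Leaving out wild-type replicate 1 or 2 or *Scd2-m/-m* replicate 2 or 3 gave log2 fold changes of −0.17, −0.24, −0.23 and −0.19, with an FDR of 0.113, 0.119, 0.147 and 0.121. Scaling by library totals alone gave −0.20 (FDR = 0.0623), and adding the counts of its paralog gave −0.19 (FDR = 0.191).

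That paralog, *Csf2rb2* (ENSMUSG00000071714, minus strand of chromosome 15, 78282507 to 78305721), lies 20030 bases away and is read in the opposite direction. It had 602, 494 and 421 CPM in the wild-type libraries and 501, 458 and 412 CPM in the *Scd2-m/-m* libraries. Wild-type replicate 1 stood above the other 5 libraries, which overlapped. On the log2 scale the change was −0.15 ± 0.13 (standard error, edgeR FDR = 0.488), and it was −0.0009 without wild-type replicate 1.

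The coding sequences of *Csf2rb* (2688 bases) and *Csf2rb2* (2634 bases) in the GENCODE transcripts of GRCm38 were identical at 95.2% of 2628 aligned positions. Of all 100-base windows of the longest *Csf2rb* transcript, 6.96% also occur in a *Csf2rb2* transcript, and 18.4% of 50-base windows do. Reads from such windows cannot be assigned by sequence, and the sources used here do not say how the authors counted them, so the split of counts between these genes is uncertain. The 90-base coding stretches where the genes differ most are shown because reads over them can be told apart. They lie in exon 5 of *Csf2rb* (chr15:78338897-78338986, plus strand) and exon 4 of *Csf2rb2* (chr15:78294345-78294434, minus strand), are written 5′ to 3′ in transcript direction, and have the 16 differing bases in capitals.
Csf2rb: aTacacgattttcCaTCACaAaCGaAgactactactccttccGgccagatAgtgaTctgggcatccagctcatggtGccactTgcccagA
Csf2rb2: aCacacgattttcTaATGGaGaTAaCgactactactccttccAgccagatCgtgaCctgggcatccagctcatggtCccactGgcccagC
The longest identical stretch has 242 bases and is shown as the opposite case. It lies in the last exon of each gene, exon 15 of *Csf2rb* (chr15:78348577-78348818) and exon 14 of *Csf2rb2* (chr15:78284630-78284871).
Csf2rb and Csf2rb2: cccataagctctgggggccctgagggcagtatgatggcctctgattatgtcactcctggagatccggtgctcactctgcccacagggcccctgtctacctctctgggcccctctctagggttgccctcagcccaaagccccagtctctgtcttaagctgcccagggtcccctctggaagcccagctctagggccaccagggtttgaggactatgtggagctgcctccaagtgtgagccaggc

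The progenitor receptor genes were at the edge of detection. *Flt3* (ENSMUSG00000042817, minus strand of chromosome 5, 147330741 to 147400489) received 8, 2 and 10 counts in wild-type replicates 1, 2 and 3, against 28, 24 and 30 in those of *Scd2-m/-m*. The plus-strand antisense gene *Gm26597* overlaps *Flt3*, and the use of strand in counting is not given. The part of *Gm26597* in these counts was not tested. All *Scd2-m/-m* libraries were higher, with a narrower spread than the wild-type libraries. The means were 0.134 ± 0.0803 and 0.498 ± 0.0196 CPM (SD, n = 3 each). The log2 fold change was 1.86 ± 0.47 (standard error, edgeR FDR = 0.0147). *Flt3* reached the level needed for testing, about 10 counts, in the 3 *Scd2-m/-m* libraries and in 0 wild-type libraries, so it entered the test through the group in which it was higher. Its log2 fold change became 1.47 (FDR = 0.0658) without wild-type replicate 2 and 1.89 (FDR = 0.0545) without *Scd2-m/-m* replicate 2, so both ended the call.

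*Kit* (ENSMUSG00000005672, plus strand of chromosome 5, 75574916 to 75656722) had 8, 12 and 16 counts in the wild-type libraries, against 21, 23 and 37 for *Scd2-m/-m*. The genotypes did not overlap, with means of 0.245 ± 0.0779 and 0.490 ± 0.133 CPM (SD, n = 3 each). *Kit* reached the level needed for testing in the 3 *Scd2-m/-m* libraries and in 2 wild-type libraries, where 3 libraries were needed. It thus also entered the test through the group in which it was higher. Its log2 fold change of 0.99 (standard error 0.41) had an FDR of 0.116 by edgeR, and in the 13 alternatives that could test it the FDR lay between 0.0730 and 0.345.

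Markers of other cells that carry these receptors were summed beside them. The 9 markers of granulocyte-monocyte progenitors summed to between 1.63 and 2.24 CPM in wild-type and between 3.10 and 4.28 CPM in *Scd2-m/-m* libraries. Of these, 4 could be tested, and 2, *Prtn3* and *Mpo*, both genes of primary granules, were called higher, where 9.65% of all genes tested were. *Prtn3* was tested because of its level in the *Scd2-m/-m* libraries. *Mpo*, the most abundant of the list, had 0.544 ± 0.134 and 1.05 ± 0.206 CPM (SD, n = 3 each; log2 fold change 0.95, FDR = 0.0394, edgeR). The 8 mast cell markers summed to between 0.173 and 0.383 CPM in wild-type and between 0.412 and 0.877 CPM in *Scd2-m/-m* libraries, with the proteases *Cma1*, *Mcpt4* and *Tpsb2* at 0 counts throughout. Only 1 of the 8, *Gata2*, had enough counts to be tested, and it was not called (FDR = 0.570, edgeR). The 8 dendritic cell markers summed to between 9.61 and 13.3 and between 9.11 and 12.5 CPM, which overlap. The part of such cells in the values of *Flt3* and *Kit* was not tested.

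**Figure D2:**
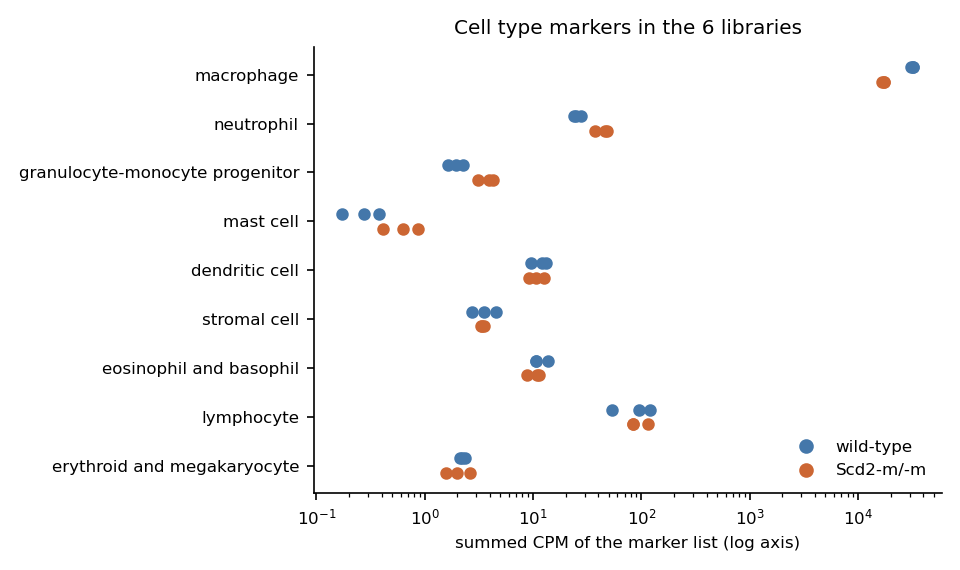
Summed CPM of each list of cell type markers (horizontal log axis) in the wild-type and *Scd2-m/-m* libraries, 1 point per library. The macrophage sum was lower and the neutrophil, granulocyte-monocyte progenitor and mast cell sums were higher in every *Scd2-m/-m* library, while the other sums overlapped. The mast cell sum was not above 0.877 CPM in any library. The macrophage sum was 30819 to 32458 CPM in wild-type and 16642 to 17516 CPM in *Scd2-m/-m* libraries. Much of it was *Lyz2*, which averaged 22751 and 9029 CPM, so this sum mostly follows 1 gene.

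Levels of different genes were compared as RPKM, which is CPM divided by the exonic length in kilobases. In wild-type BMDMs the means were 1218 ± 49.3 for *Csf1r*, 255 ± 13.2 for *Csf2ra*, 107 ± 19.3 for *Csf2rb2*, 63.4 ± 4.96 for *Csf2rb* and 45.6 ± 1.71 RPKM for *Csf3r* (SD, n = 3 each). The libraries of neighbouring genes in this order did not overlap. *Csf1* followed at 0.492 ± 0.0923 RPKM, and *Kit* (0.0275 ± 0.0087) and *Flt3* (0.0217 ± 0.0130) did not differ beyond their spread. In *Scd2-m/-m* BMDMs the first 6 genes kept this order, with means of 938 ± 11.9, 229 ± 17.7, 96.4 ± 9.35, 54.0 ± 3.34, 37.4 ± 3.33 and 0.632 ± 0.116 RPKM. *Flt3* then lay above *Kit*, at 0.0807 ± 0.0032 against 0.0550 ± 0.0149 RPKM. The gap between *Csf2rb* and *Csf2rb2* depends on the length used. Per kilobase of the longest transcript, *Csf2rb* had 94.2 ± 7.36 and *Csf2rb2* 107 ± 19.3 RPKM in wild-type BMDMs.

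**Figure D3:**
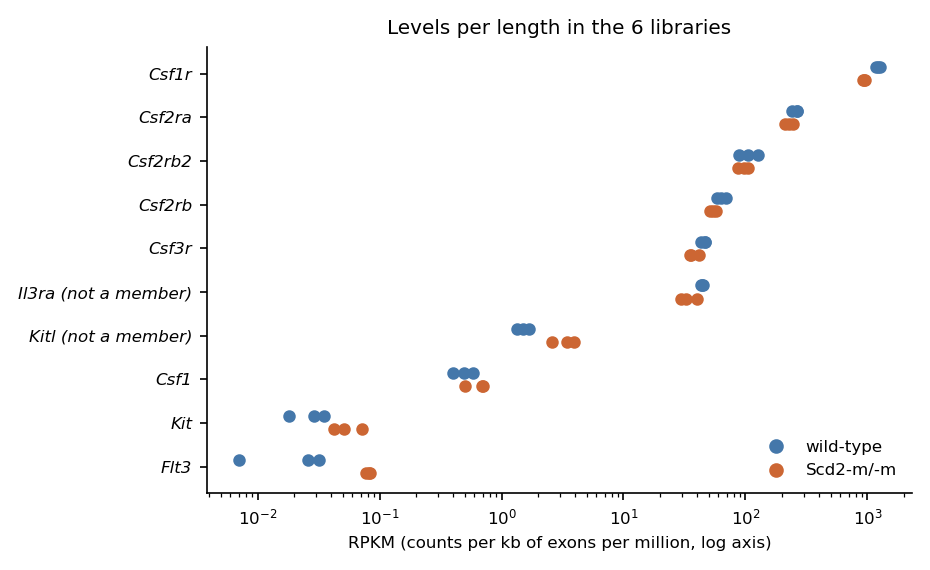
Level per length of 8 of the 10 genes and of *Il3ra* and *Kitl* in RPKM (horizontal log axis), 1 point per library in each genotype. *Csf1r* averaged 1218 RPKM in wild-type BMDMs and *Kit* and *Flt3* below 0.1 RPKM, with the beta chains and *Csf3r* between them.

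Whether related receptors changed unequally was asked with 4 ratios of counts within a library, in which library size cancels. The ratio of *Csf2rb* to *Csf2ra* was 0.662, 0.607 and 0.621 in the wild-type libraries and 0.591, 0.595 and 0.610 in the *Scd2-m/-m* libraries, a difference of −0.07 on the log2 scale (exact permutation test, two-sided, p = 0.2, adjusted p = 0.4 over the 4 ratios). The ratio of *Csf2rb2* to *Csf2rb* ranged from 0.983 to 1.21 in wild-type and from 1.12 to 1.20 in *Scd2-m/-m* libraries, and the log2 ratio differed by 0.10 (exact permutation test, p = 0.4, adjusted p = 0.533). *Csf3r* to *Csf1r* differed by 0.09 on the log2 scale (exact permutation test, p = 0.6, adjusted p = 0.6), although the 3 *Scd2-m/-m* libraries gave ratios of 0.0231, 0.0239 and 0.0278. *Kit* to *Flt3* ranged from 1 to 6 in wild-type and from 0.750 to 1.23 in *Scd2-m/-m* libraries, a log2 difference of −1.15 (exact permutation test, p = 0.2, adjusted p = 0.4). The libraries overlapped in all 4 ratios, and with 3 libraries against 3 none of these tests could have given a p below 0.1.

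**Figure D4:**
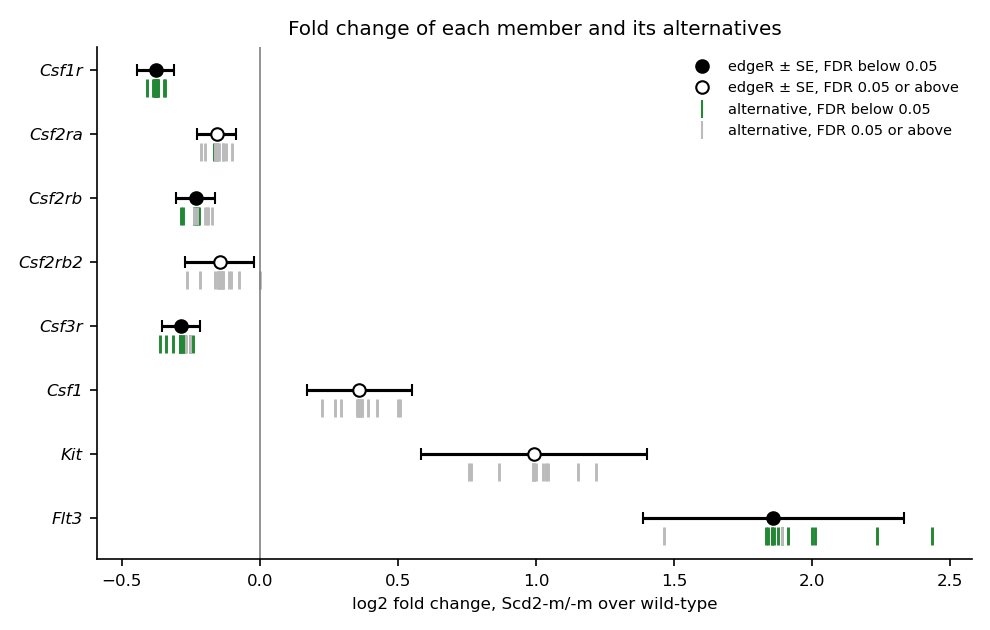
Log2 fold change of *Scd2-m/-m* over wild-type for the 8 tested genes (horizontal axis), as the edgeR estimate ± standard error (circles, filled where the FDR was below 0.05) and under each alternative setting (ticks). The ticks of *Csf1r* were all called, those of *Csf2rb* lay on both sides of the threshold, and no tick of any gene lay on the other side of 0 from its circle.

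Other growth factors and receptors of blood cell formation were followed in a list of 11 genes, of which 10 were in the table and 3 could be tested. Stem cell factor (*Kitl*, chromosome 10, 100015630 to 100100416), the ligand of KIT, had 7.86, 8.87 and 9.90 CPM in the wild-type libraries and 20.5, 15.3 and 23.4 CPM in the *Scd2-m/-m* libraries. It rose in every library, from 8.87 ± 1.02 to 19.7 ± 4.08 CPM (SD, n = 3 each). edgeR's log2 fold change was 1.15 ± 0.15 (standard error, FDR = 3.13e-04). *Il3ra* (chromosome 14, 14346275 to 14356011), the alpha chain of the interleukin-3 receptor, which pairs with both beta chains, had 133, 131 and 129 CPM in the wild-type libraries and 120, 96.8 and 88.1 CPM in the *Scd2-m/-m* libraries. Its transcript fell, with a log2 change of −0.36 ± 0.09 (standard error, edgeR FDR = 0.0197), and without wild-type replicate 2 or *Scd2-m/-m* replicate 2 the list had 1 call, higher, in place of 2. *Epor*, the erythropoietin receptor gene, had 1.26 ± 0.358 and 1.61 ± 0.202 CPM (SD, n = 3 each; FDR = 0.361, edgeR). *Il3*, *Il5*, *Epo* and *Il5ra* had 0 counts in all libraries, and *Csf3* and *Thpo* did not exceed 0.0344 CPM in any. *Flt3l* was not analysed here.

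Genes of CSF1R signalling, a list that holds genes that carry the signal and genes that restrain it, were mostly lower where they were called. All 31 genes of this list were tested and 10 were called (32.3%), 2 higher and 8 lower, where 17.5% of all genes were called, 9.65% higher and 7.84% lower. The median log2 fold change of the 31 was −0.16. *Src*, a tyrosine kinase, fell from 12.6 ± 0.878 to 6.91 ± 0.686 CPM (SD, n = 3 each; log2 fold change −0.87, FDR = 6.77e-05, edgeR). *Ptpn6*, the phosphatase SHP-1, fell from 386 ± 3.57 to 315 ± 9.22 CPM (log2 fold change −0.29, FDR = 0.00269). *Cblb*, a ubiquitin ligase that restrains receptor signalling, rose from 76.5 ± 0.669 to 112 ± 8.34 CPM (log2 fold change 0.56, FDR = 4.52e-05), and *Fyn*, a kinase of the same family as SRC, rose with a log2 fold change of 0.33 (FDR = 0.00293). The 21 others included *Grb2*, *Sos1*, *Shc1* and *Syk*, whose log2 fold changes lay between −0.05 and 0.02. Only 5 genes were called without wild-type replicate 2 and 5 without *Scd2-m/-m* replicate 2. Over all genes these fits called 1490 of 15161 and 1440 of 15107.

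In the JAK-STAT5 pathway, through which the GM-CSF receptor signals, 3 of 15 genes were called, 2 higher and 1 lower, close to the share over all genes. The kinase gene *Pim1* rose from 69.4 ± 6.30 to 93.4 ± 3.01 CPM (SD, n = 3 each; log2 fold change 0.43, FDR = 7.71e-04, edgeR). *Bcl2l1*, which encodes the survival factor BCL-XL, rose with a log2 fold change of 0.24 (FDR = 0.0169), and *Pim3* fell with one of −0.45 (FDR = 0.00555). *Stat5a*, *Stat5b* and *Jak2* had log2 fold changes of 0.02, −0.11 and −0.04 and were not called.

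Of 15 genes known to respond to GM-CSF, 12 were tested and 4 called (33.3%, against 17.5% of all genes tested), 3 higher and 1 lower. *Chil3*, a secreted chitinase-like protein, rose from 1.46 ± 0.249 to 5.08 ± 0.400 CPM (SD, n = 3 each; log2 fold change 1.79, FDR = 6.68e-06, edgeR). *Ear2*, a ribonuclease gene with close relatives, whose reads may be shared, rose from 0.428 ± 0.157 to 1.60 ± 0.664 CPM (FDR = 0.00309), and the chemokine gene *Ccl22* from 0.336 ± 0.173 to 1.01 ± 0.486 CPM (FDR = 0.0245). With 8 counts in wild-type replicate 3, *Ccl22* missed the level needed for testing in that library, where 3 libraries were needed. It thus entered the test through the group in which it was higher. *Cd74*, the invariant chain of MHC class II, fell from 773 ± 89.0 to 565 ± 73.0 CPM (FDR = 0.00960). *Pparg*, which GM-CSF induces in alveolar macrophages, had a log2 fold change of 0.10 (FDR = 0.430).

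**Figure D5:**
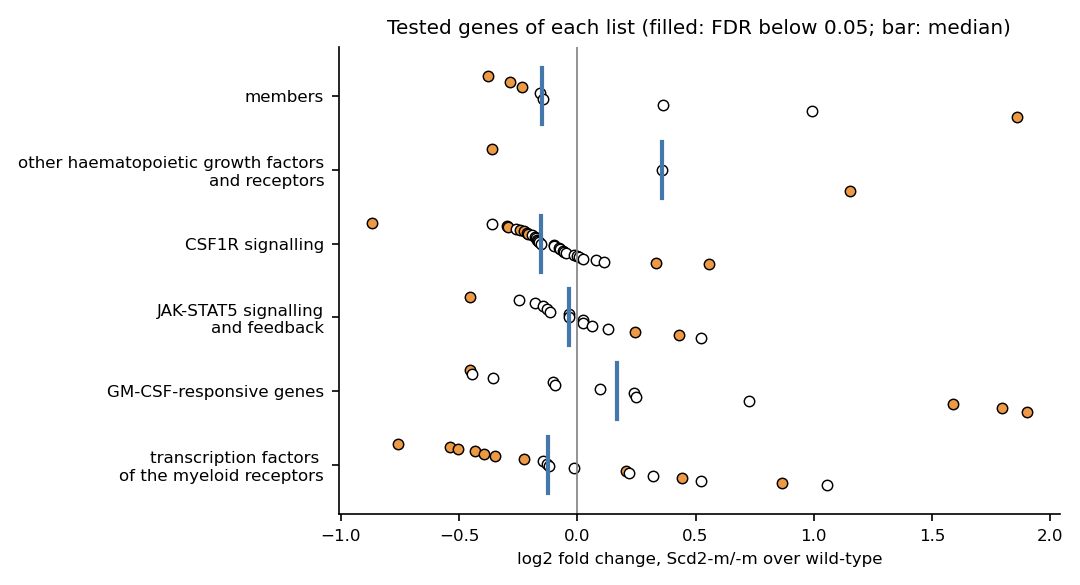
Log2 fold change (horizontal axis) of every tested gene in the 10 growth factor and receptor genes and in 5 lists of related genes, filled where the FDR was below 0.05, with the median of each list as a bar. Filled points lay mostly to the left of 0 for the signalling and transcription factor lists and on both sides for the others.

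A list of transcription factors picked as possible regulators of the receptor genes had 10 calls among 18 tested genes (55.6%, against 17.5% of all genes tested), 3 higher and 7 lower, and a median of −0.13 on the log2 scale. Whether each of them controls any of the 10 genes was not tested. *Cebpa*, which encodes C/EBP-alpha, a regulator of granulocyte and monocyte genes, fell from 164 ± 9.44 to 113 ± 7.49 CPM (SD, n = 3 each; log2 fold change −0.54, FDR = 8.76e-05, edgeR). *Ets2* fell from 55.8 ± 2.66 to 39.3 ± 1.83 CPM (log2 fold change −0.51, FDR = 1.14e-04). *Egr2*, an immediate-early factor, rose from 6.85 ± 0.492 to 12.5 ± 0.932 CPM (log2 fold change 0.86, FDR = 5.50e-05). *Spi1*, the gene of PU.1, was among the 7 that fell, with a log2 fold change of −0.23 (FDR = 0.0323). *Irf8* (−0.01) and *Runx1* (−0.14) were not called. Without *Scd2-m/-m* replicate 2 the list had 6 calls, where 1440 of 15107 genes were called over all genes.

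Promoters of some of the 10 genes are shown because PU.1 and C/EBP factors are known regulators of myeloid receptor genes. Windows of 300 bases, 250 before to 50 after the RefSeq start of the gene (GRCm38.p6), were read for 7 of the 10 genes. *Csf1r* was left out of the search by choice, and no window was read for *Csf2rb* or *Il34*. *Csf1r* and *Csf2rb*, both called lower, were therefore not searched, and the search says nothing about their promoters. The windows were searched on both strands for 4 motifs chosen after the expression values were seen, GAGGAA (PU.1 and other ETS factors), TTGCNNAA (C/EBP), TGTGGT (RUNX) and TGANTCA (AP-1), which do not overlap in these windows. GAGGAA was found in 4 of the 7, *Csf2ra*, *Csf2rb2*, *Csf3r* and *Kit*, and 28.3% of all promoter windows of this length hold it. In *Csf3r* it began 86 bases before the RefSeq start, in *Csf2ra* 14 and 8 bases before, and in *Csf2rb2* 167 bases before and 30 bases after. For *Csf3r* and *Csf2ra* the RefSeq start lies inside the GENCODE gene coordinates given above, so these distances do not apply to those coordinates. TTGCNNAA, found in 10.8% of all windows, was present in that of *Csf2* alone. TGTGGT and TGANTCA, found in 16.8% and 7.81% of all windows, were in none of the 7. The windows of the 3 abundant receptor genes with a match are given 5′ to 3′ on the strand of the gene, with GAGGAA or its reverse complement in capitals. They are chr4:126024409-126024708 (plus strand) for *Csf3r*, chr19:61228369-61228668 (minus) for *Csf2ra* and chr15:78305672-78305971 (minus) for *Csf2rb2*.
Csf3r: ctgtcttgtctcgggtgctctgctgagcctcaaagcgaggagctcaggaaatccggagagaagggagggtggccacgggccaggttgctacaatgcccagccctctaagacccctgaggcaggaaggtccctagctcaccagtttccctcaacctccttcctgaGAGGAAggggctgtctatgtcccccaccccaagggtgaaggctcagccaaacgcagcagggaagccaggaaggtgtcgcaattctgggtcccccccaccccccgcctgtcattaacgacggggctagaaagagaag
Csf2ra: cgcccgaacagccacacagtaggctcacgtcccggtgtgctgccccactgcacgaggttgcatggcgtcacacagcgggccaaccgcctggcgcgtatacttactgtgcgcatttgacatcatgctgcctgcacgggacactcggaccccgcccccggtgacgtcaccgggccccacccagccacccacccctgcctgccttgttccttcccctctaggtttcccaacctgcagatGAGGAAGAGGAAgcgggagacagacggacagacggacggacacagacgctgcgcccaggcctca
Csf2rb2: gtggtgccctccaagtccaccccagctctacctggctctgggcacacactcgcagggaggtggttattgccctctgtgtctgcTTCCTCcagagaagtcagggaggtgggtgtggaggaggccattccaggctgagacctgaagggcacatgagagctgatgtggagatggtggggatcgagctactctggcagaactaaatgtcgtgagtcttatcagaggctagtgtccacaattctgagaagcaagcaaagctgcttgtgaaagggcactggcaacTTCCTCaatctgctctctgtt
A match is a run of letters and not a binding site, and of these 3 genes *Csf3r* was called lower while *Csf2ra* and *Csf2rb2* were not called.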

How the data were processed

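RNA of unstimulated BMDMs, 3 samples per genotype, was poly(A)-selected and sequenced (Illumina NovaSeq). The authors aligned reads with STAR to the Ensembl release 76 primary assembly (GRCm38). What the authors deposited are raw counts, whole numbers for each gene. Sources used here do not give the counting tool, its use of strand or read filters. The authors' second table, their own edgeR and limma comparison with log2 CPM, was not used.

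Of 40757 entries, 276 repeated a gene and were removed. The main test was edgeR 4.0.16 in R 4.3.3 (filterByExpr, TMM, glmQLFit with robust estimation, glmQLFTest) over 14778 genes, with Benjamini-Hochberg adjustment (FDR below 0.05 called). It was tested on simulated counts. The standard error is the log2 fold change divided by the square root of F. No sex, day or batch could be used as a term. Between 60.9% and 64.9% of counts of 1 to 20 were even per library, so a count may not be 1 molecule, and intervals and floors cover counting error only. Replicates differed by more than sampling noise (chi-square per gene 10.4 to 31.9). Exonic lengths and coordinates are from GENCODE M21 (GRCm38), with models for 99.7% of genes, and may differ from the annotation the authors counted on. Coding sequences were aligned with Biopython 1.88.

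All 10 genes are described, with up to 4 called genes of smallest p per list, the genes of the growth factor list, and the most abundant markers. Some genes under this rule are not reported here. *Prtn3*, *Ly6g*, *Spi1* and genes named as not called were added after their values were seen. The genes and lists were chosen with earlier results of these data known. Alternatives were RLE factors, library totals (added later), 2 other filters, DESeq2 1.42.0, limma-voom (limma 3.58.1) with and without quality weights, a replicate block, each library left out, halved counts, summed paralogs and other thresholds.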

Additional observations from a re-analysis of the deposited data

How the results depend on the processing

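With 4 growth factor and receptor genes called, the count was 1 at an FDR below 0.01 and 0 with the study's fold threshold, under which the 5 related lists also had 0 calls each. At an FDR below 0.01 the list of other growth factors and receptors had 1 call in place of 2 and the CSF1R signalling list 5 in place of 10. With limma-voom and quality weights the CSF1R signalling list had 16 calls, the JAK-STAT5 list 5 in place of 3 and the GM-CSF list 7 in place of 4, and the GM-CSF list also had 7 with no filter on low counts. Calls over all genes rose as well, from 2585 of 14778 in the main fit to 4507 of 14778 with quality weights. With no filter they were 3011 of 25587. With a library left out the number of calls ranged from 1 to 4 for the growth factor and receptor genes, from 1 to 2 for other growth factors and receptors, from 5 to 9 for CSF1R signalling, from 2 to 3 for JAK-STAT5, from 3 to 6 for GM-CSF and from 6 to 10 for transcription factors. Over all genes it ranged from 1440 of 15107 (without *Scd2-m/-m* replicate 2) to 2567 of 15086 (without *Scd2-m/-m* replicate 1). The wild-type and *Scd2-m/-m* replicate numbers did not pair the libraries (correlations of same-numbered deviations 0.0530, −0.0196 and 0.0398). The fit with the replicate number as a block gave 16 calls in the CSF1R signalling list and 2974 of 14778 over all genes. It changed no call among the 8 genes tested. The 4 ratios kept their direction with any 1 library left out. Scaling by library totals raised the share of higher genes among all calls from 55.2% to 65.4%. No log2 fold change of the 8 genes changed sign under any alternative run, *Kit* could not be tested with halved counts, and neither *Kit* nor *Flt3* with the filter of 1 CPM in 3 libraries. At this depth *Kit* and *Flt3* rest on between 2 and 37 counts per library. Except where a setting itself removes samples or genes, the cause was not tested.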

Other observations

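Transcripts of some other cell types also differed between the genotypes, at low levels. *Ccr7*, a chemokine receptor gene of migrating dendritic cells, was the only called gene among 7 tested dendritic cell markers, at 0.0486 ± 0.0443 CPM in wild-type BMDMs against 0.683 ± 0.271 CPM with *Scd2* deleted (SD, n = 3 each; log2 fold change 3.78, FDR = 9.36e-04, edgeR). It reached the level needed for testing in the *Scd2-m/-m* libraries only, so it entered the test through the group in which it was higher. Over all genes tested, 17.5% were called, 9.65% higher. Of 4 tested lymphocyte markers, *Cd79a* and *Cd79b*, the signalling chains of the B cell receptor, were called higher, *Cd79b* with 2.50 ± 0.645 and 5.01 ± 0.907 CPM (FDR = 0.00260). *Ighm*, the most abundant of that list, had a log2 fold change of 0.03 (FDR = 0.970). The summed levels of the stromal, the eosinophil and basophil, and the erythroid and megakaryocyte markers overlapped between the genotypes. These genes were named after their values were seen.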
